A study of Mus musculus with 3 samples.

Results

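Cadherins are single-pass or lipid-anchored membrane proteins that hold neighboring cells together, and 10 members of the family were described here in cultured neural cells of the mouse: Cdh2, Cdh4, Cdh6, Cdh8, Cdh10, Cdh11, Cdh12, Cdh13, Cdh18 and Cdh20. They were picked out by their gene symbols from 30559 genes listed in the count tables. The list of symbols was chosen with earlier results of these data known. All 10 members had counts in each of the 3 libraries. Each library was 1 pool of about 15 cultures of neurospheres, which are floating clusters of neural stem and progenitor cells, here taken from the subventricular zone of newborn C57BL/6 mice, then differentiated and collected at 15 days in vitro. The control library came from cultures given a virus for a red fluorescent protein, and the mouse line of these cultures was not stated. The CBP-ablated library (genotype label CBPf/f) and the p300-ablated library (label p300f/f) came from cultures carrying floxed alleles of the acetyltransferase genes Crebbp or Ep300 and given a virus for Cre recombinase with mCherry. The treatment label of all 3 samples names tamoxifen, whereas the study's methods describe delivery of Cre by lentivirus. Nuclei were sorted on their red fluorescence, so that only cells reached by a virus entered, and 16000 nuclei were loaded for each library. With 1 library per condition, a difference between conditions cannot be told apart from a difference between pools, and no test was made.

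The control library had 4884 nuclei, the CBP-ablated library 3017 and the p300-ablated library 4648, and they held 16312170, 12748336 and 18876682 unique molecular identifiers (UMIs, each standing for 1 captured RNA molecule). The median nucleus held 3219, 4016 and 3903 UMIs. Between 1 and 7 cell barcodes were shared by each pair of libraries. With the libraries always in the order control, CBP-ablated, p300-ablated, Crebbp was measured at 335, 370 and 365 counts per 1000000 UMIs (CPM) and Ep300 at 114, 136 and 115 CPM. Since counts cover the whole gene and not the floxed part alone, these values do not check the ablation. Nuclei were grouped by clustering without any cadherin superfamily gene, which gave 10 classes named from fixed marker lists and 3 unnamed clusters. The astrocyte-like class held 1277 nuclei, 26.1% of the control library, and no nucleus of either ablated library. Oligodendrocyte-like nuclei made up 3.30%, 16.1% and 4.15% of the libraries. Committed oligodendrocyte precursor-like nuclei made up 8.01%, 20.1% and 5.03%. Markers of ependymal, mural and endothelial cells summed to between 5.58 and 9.56 CPM in every library, with up to 2 markers of a list at 0. These sums do not show that ciliated cells were absent. An unnamed cluster of 27 nuclei (2, 15 and 10 by library) had Mcidas, Deup1 and Dnah12 among its leading genes. Astrocyte markers summed to 9199, 2050.0 and 3647 CPM.

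Cadherins bind the same or a related cadherin on the next cell through repeated calcium-binding domains. In the classical members the tail inside the cell binds β-catenin and p120-catenin, which link it to actin through α-catenin. Cdh2 (N-cadherin) and Cdh4 (R-cadherin) are type I members, and Cdh2 holds together the junctions of neural stem cells. Cdh6, Cdh8, Cdh10, Cdh11, Cdh12, Cdh18 and Cdh20 are type II members, best known for the sorting of neuron groups and the matching of synaptic partners. Cdh13 (T-cadherin) has no tail and is held in the membrane by a GPI anchor. Because most nuclear RNA is unspliced, longer genes collect more UMIs, so levels were compared between genes only per 100 kb of gene span, and CPM was used for 1 gene across samples. The spans ran from 145 kb for Cdh6 to 1140 kb for Cdh12 (GRCm38). Cdh6, Cdh10, Cdh12 and Cdh18 lie on chromosome 15, Cdh8, Cdh11 and Cdh13 on chromosome 8, Cdh20 on chromosome 1, Cdh4 on chromosome 2 and Cdh2 on chromosome 18. Of the members, only Cdh12 overlaps a listed gene on its own strand, Gm49685, which had 3 UMIs in all.

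Per 100 kb of gene span, Cdh20 was the member with the highest level in control nuclei at 488 CPM, followed by Cdh2 at 334 and Cdh10 at 321. Cdh6 at 122 and Cdh11 at 118 CPM per 100 kb were next, and their counting intervals overlapped. Cdh4 stood at 67.6 and Cdh13 at 61.8 CPM per 100 kb. Cdh8, Cdh18 and Cdh12, at 6.15, 4.45 and 3.08 CPM per 100 kb, were the lowest. In the CBP-ablated library the order at the top differed, with Cdh2 at 323 CPM per 100 kb above Cdh20 at 279, while in the p300-ablated library Cdh20 at 394 and Cdh2 at 389 had overlapping intervals. Together the members made up 0.388% of control UMIs, 0.306% of CBP-ablated UMIs and 0.371% of p300-ablated UMIs.

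Of the type I members, Cdh2 was measured at 737 CPM in control, 711 CPM in the CBP-ablated and 856 CPM in the p300-ablated library. Its p300-ablated log2 ratio was 0.22 over all nuclei and 0.12 outside the astrocyte-like class. At an equal mix of classes, as described further on, that ratio was 0.03. Cdh4 was measured at 309, 152 and 226 CPM in the same order, so that both ablated libraries lay below control and the CBP-ablated library was lowest. The Cdh4 ratio to control was −1.02 on the log2 scale in the CBP-ablated library (95% interval −1.09 to −0.94). With p300 ablated it was −0.45 (−0.51 to −0.39). These intervals, and all others here, cover counting error only.

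Among the type II members, Cdh20 was measured at 1107 CPM in control, 633 CPM in the CBP-ablated and 894 CPM in the p300-ablated library. The CBP-ablated value was 1.75-fold lower than control (log2 ratio −0.81, −0.85 to −0.77), and the p300-ablated ratio was −0.31. Cdh10 had the same order of libraries, with 626 CPM in control, 407 CPM in the CBP-ablated and 518 CPM in the p300-ablated library. Its CBP-ablated log2 ratio was −0.62 (−0.67 to −0.57). Cdh6 was measured at 177 CPM in control, 132 CPM in the CBP-ablated and 177 CPM in the p300-ablated library, so only the CBP-ablated library stood apart. Cdh12 was measured at 35.1, 22.5 and 33.1 CPM, again with the CBP-ablated library below the other two. Its CBP-ablated log2 ratio was −0.20 at an equal mix of classes, as described further on. Within the named classes that ratio was below 0 in 4 and above 0 in 3, and each interval held 0.

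Cdh8 and Cdh18 had other orders. Cdh8 was measured at 24.1 CPM in control, 43.8 CPM in the CBP-ablated and 16.4 CPM in the p300-ablated library, with log2 ratios of 0.86 (0.67 to 1.05) and −0.56 (−0.78 to −0.34). Cdh18 was measured at 41.2 CPM in both the control and the CBP-ablated library and at 80.3 CPM in the p300-ablated library. The p300-ablated value was 1.95-fold higher than control (log2 ratio 0.96, 0.83 to 1.10). Cdh11 stayed within a narrow range, at 181, 193 and 163 CPM. The GPI-anchored Cdh13 was measured at 644 CPM in control and at 729 and 744 CPM in the CBP-ablated and p300-ablated libraries, with log2 ratios of 0.18 and 0.21. Outside the astrocyte-like class these ratios were 0.04 and 0.07, and at an equal mix of classes 0.02 and 0.07.

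**Figure D1:**
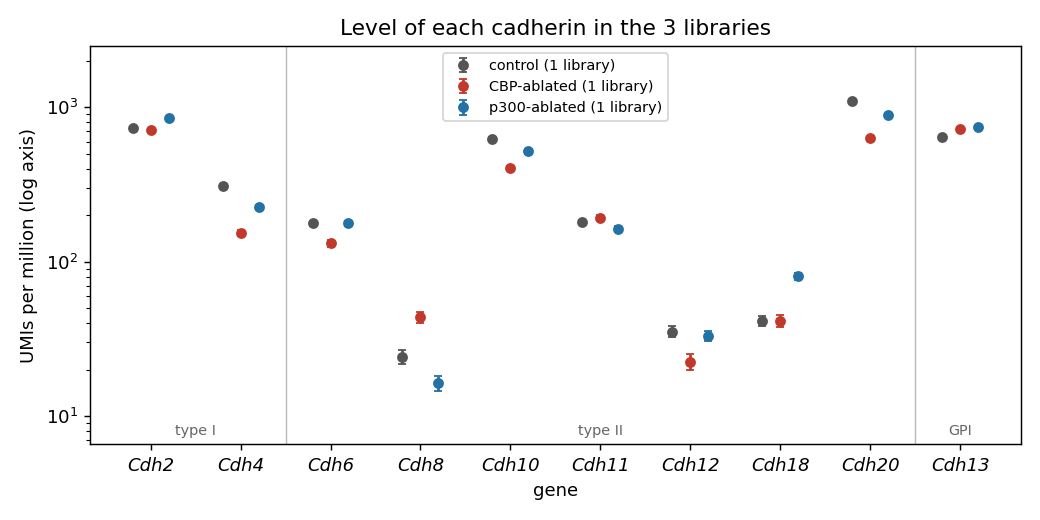
Level in CPM (log axis) of each cadherin in the control, CBP-ablated and p300-ablated library, with points for 1 library each and bars for exact 95% Poisson intervals. Cdh4, Cdh10 and Cdh20 lie lowest in the CBP-ablated library, Cdh8 is highest there at 43.8, and Cdh18 is highest in the p300-ablated library at 80.3.

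By a rule of size, a member was counted when it differed from control by more than 1.5-fold and the 2 libraries compared held 100 or more of its UMIs. In the CBP-ablated library, 4 of the 10 members lay lower past 1.5-fold (Cdh4, Cdh10, Cdh12 and Cdh20), where 9.97% of 11883 genes did, and 1 member, Cdh8, lay higher, where 7.9% of genes did. Outside the astrocyte-like class, which only the control library held, 1 member was left lower past 1.5-fold, Cdh20, where 7.17% of 11430 genes were. None lay higher there, where 6.05% of genes did. In the p300-ablated library only Cdh18 lay higher past 1.5-fold, against 4.37% of 12247 genes, and no member lay lower, against 7.77% of genes. Outside the astrocyte-like class Cdh18 stayed higher past 1.5-fold, where 2.29% of 11878 genes were. Cdh8 lay lower past 1.5-fold there (log2 ratio −0.88, −1.10 to −0.66), where 4.12% of genes did. The median log2 ratio of the members was −0.24 in the CBP-ablated library, beside 0.06 over all genes. It was −0.12 in the p300-ablated library, beside −0.03 over all genes. Both comparisons use the same control library.

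The ablated libraries compared directly, without the control, differed past 1.5-fold in Cdh8 and Cdh18. Cdh8 was 2.67-fold higher in the CBP-ablated than in the p300-ablated library (log2 ratio 1.42, 1.22 to 1.62), where 8.26% of genes were higher past 1.5-fold. Cdh18 was 1.95-fold lower (log2 ratio −0.96, −1.11 to −0.82), where 8.03% of genes were lower. Cdh4, Cdh20 and Cdh6 had log2 ratios of −0.57, −0.50 and −0.43 between the ablated libraries, short of that size. At an equal mix of classes, as described further on, the ratio of Cdh8 was 0.37, that of Cdh18 −0.90 and that of Cdh20 −0.62.

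A level summed over a library depends on which classes it holds, and in such a sum fewer nuclei of a class and less RNA per nucleus cannot be told apart. The members were therefore described in each class, with the 3 libraries added together. The classes were RGC/PSC-like (radial glia or precursor), glial progenitor-like, astrocyte-like, proliferating-like, NPC/OPC-like (neural or oligodendrocyte precursor), committed oligodendrocyte precursor-like (COP-like), oligodendrocyte-like, neuron-like and microglia-like nuclei, and a Kcnj6-high class. The last was found with the markers that the study gives for immature neurons. Its nuclei also held Pdgfra at 557 CPM and Sox10 at 216 CPM, genes of oligodendrocyte precursors. Rbfox3, a gene of mature neurons, was at 33.8 CPM against 325 CPM in neuron-like nuclei. The class is therefore called here by its leading gene. That name is for the class as a whole, whose finer groups differed in Kcnj6, as given further on.

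Cdh2 was highest in RGC/PSC-like nuclei at 2204 CPM, 2.03-fold above glial progenitor-like nuclei at 1086 CPM. It was lowest in oligodendrocyte-like nuclei at 313 CPM and microglia-like nuclei at 217 CPM. Cdh4 had its highest levels in RGC/PSC-like nuclei at 577 CPM, astrocyte-like nuclei at 573 CPM and neuron-like nuclei at 508 CPM, neighbors in this order whose intervals overlapped. Along the oligodendrocyte classes Cdh4 was 164 CPM in NPC/OPC-like, 38.0 CPM in COP-like and 22.7 CPM in oligodendrocyte-like nuclei, the lowest of the 10 named classes.

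Cdh8 was nearly a neuron-like gene, at 712 CPM in that class and 11.3 CPM in the next, the Kcnj6-high class. The neuron-like class held 70.4% of all Cdh8 UMIs in 2.87% of the nuclei. After each nucleus was thinned to 1500 UMIs to make depths equal, 43.0% of 344 neuron-like nuclei had a Cdh8 UMI, and none of 116 microglia-like nuclei did, with an exact Clopper-Pearson upper bound of 3.13%. Without thinning these shares were 56.7% and 0.643%. Cdh18 was also highest in neuron-like nuclei, at 221 CPM, with 86.7 CPM in NPC/OPC-like nuclei.

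Cdh20, Cdh10 and Cdh13 were high in the proliferating-like, NPC/OPC-like, COP-like and Kcnj6-high nuclei, and the first 2 also in astrocyte-like nuclei. With the libraries summed, Cdh20 was 1582 CPM in Kcnj6-high, 1270 CPM in COP-like, 1066 CPM in proliferating-like and 739 CPM in oligodendrocyte-like nuclei. The astrocyte-like nuclei, all from control, had 1446 CPM. The order was not the same in each library. Kcnj6-high nuclei led in control at 1846 CPM, above COP-like nuclei at 1550 CPM, and with p300 ablated at 1909 CPM, whereas with CBP ablated COP-like nuclei led at 1028 CPM and Kcnj6-high nuclei had 634 CPM. Cdh10 in control was 799 CPM in astrocyte-like and 788 CPM in Kcnj6-high nuclei. Its level in Kcnj6-high nuclei was 883 CPM with p300 ablated and 435 CPM with CBP ablated, below the 503 CPM of COP-like nuclei of that library. Cdh13 summed over libraries was 1230 CPM in COP-like, 1025 CPM in proliferating-like and 675 CPM in oligodendrocyte-like nuclei. It was at 102 CPM in both glial progenitor-like and microglia-like nuclei. Cdh6 and Cdh11 were spread more evenly, between 82.7 and 219.5 CPM and between 122.8 and 256 CPM in the classes other than microglia-like. Cdh12 did not pass 56.6 CPM in any of the named classes.

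**Figure D2:**
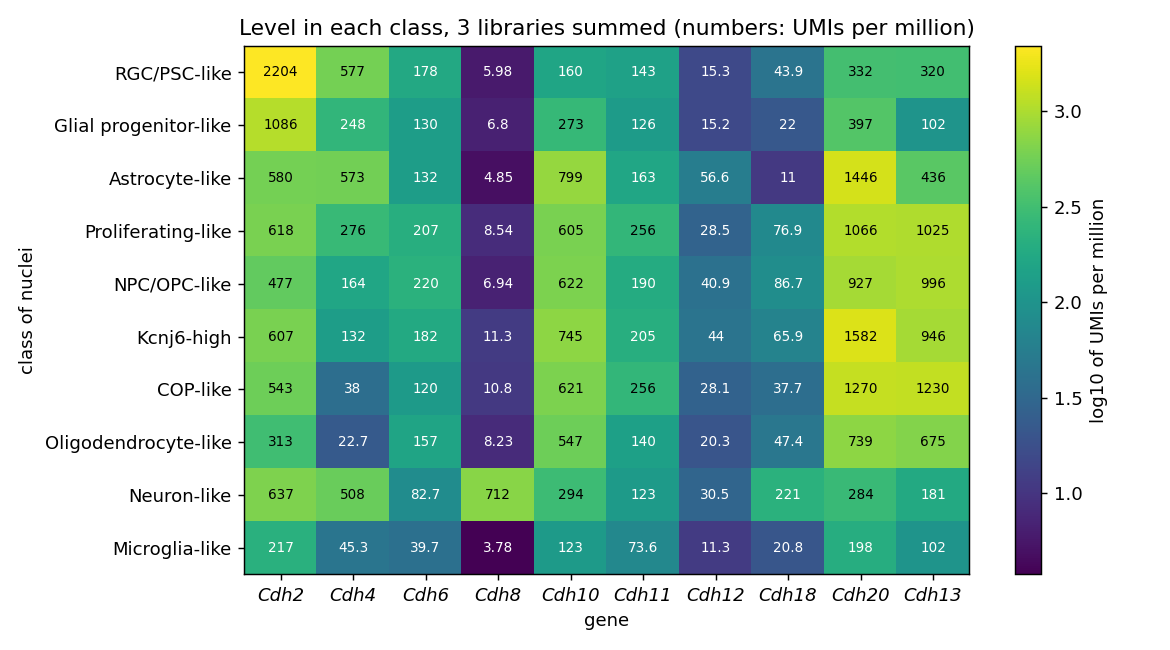
Level of each cadherin (columns) in the 10 named classes (rows), with the 3 libraries summed, printed in CPM and colored by its log10. Cdh2 peaks in RGC/PSC-like nuclei at 2204, Cdh8 in neuron-like nuclei at 712, Cdh13 in COP-like nuclei at 1230 and Cdh20 in Kcnj6-high nuclei at 1582 (astrocyte-like nuclei are from control alone), and the microglia-like row is low for every gene.

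Per 100 kb of gene span, Cdh2 led in RGC/PSC-like nuclei at 1000.3 CPM, against 146 CPM per 100 kb for Cdh20. It also led in glial progenitor-like and neuron-like nuclei, in each library. Cdh20, then Cdh10, then Cdh2 was the order in NPC/OPC-like, Kcnj6-high, COP-like, oligodendrocyte-like, proliferating-like and astrocyte-like nuclei, for example 559, 318 and 246 CPM per 100 kb in COP-like nuclei. With CBP ablated, Cdh2 lay above Cdh10 in proliferating-like nuclei, at 269 against 238 CPM per 100 kb, and Kcnj6-high nuclei had 225 and 223. In neuron-like nuclei Cdh8 came second, at 182 CPM per 100 kb beside 289 for Cdh2.

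Over 33 combinations of class and library with at least 40 nuclei, the profiles of Cdh10 and Cdh20 were closer to each other than to any other of 8521 genes (Pearson r = 0.92 of log2 CPM). The points share 3 libraries and differ in depth, so this is a description. The gene closest to Cdh13 was Nkx2-2 (r = 0.90) and the next Sox8, both transcription factors of the oligodendrocyte lineage. Closest to Cdh8 were Kcnmb2 (r = 0.93), a potassium channel subunit, and Dlx6os1 (r = 0.90), a non-coding RNA of the Dlx5 and Dlx6 locus of inhibitory neurons. Nfib (r = 0.92), a transcription factor of glial development, was closest to Cdh4, Sptan1 (r = 0.91) to Cdh2 and Ppfia2 (r = 0.88) to Cdh18.

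To set the libraries side by side at an equal mix, each member's class levels were averaged with the control weights of the 10 classes and clusters that held at least 40 nuclei in every library, which leaves out the astrocyte-like class. On this scale Cdh20 alone lay lower past 1.5-fold in the CBP-ablated library, at 620 CPM against 997 CPM in control (log2 ratio −0.69), where 3.99% of 11330 genes did. No member lay higher, where 3.26% of genes did. Cdh10 stood at 389.5 CPM against 569.9 CPM (log2 ratio −0.55), and Cdh4 at 177 against 222 CPM (−0.33). Cdh8, higher in the whole CBP-ablated library, stood at 27.6 CPM against 31.0 CPM in control (−0.17). Neuron-like nuclei made up 5.67% of the CBP-ablated, 2.09% of the control and 1.87% of the p300-ablated library, and within them Cdh8 was 895 CPM in control, 697 CPM in the CBP-ablated and 568 CPM in the p300-ablated library.

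In the p300-ablated library at the same mix, Cdh18 was the only member past 1.5-fold, at 79.7 CPM against 50.9 CPM (log2 ratio 0.65). There 1.79% of 11781 genes lay higher past 1.5-fold and 2.74% lay lower. Cdh4 was 195 CPM against 222 CPM in control (−0.19). When the astrocyte-like nuclei were only left out, without an equal mix, the control level of Cdh4 was 225 CPM, equal within counting error to the p300-ablated 226 CPM.

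**Figure D3:**
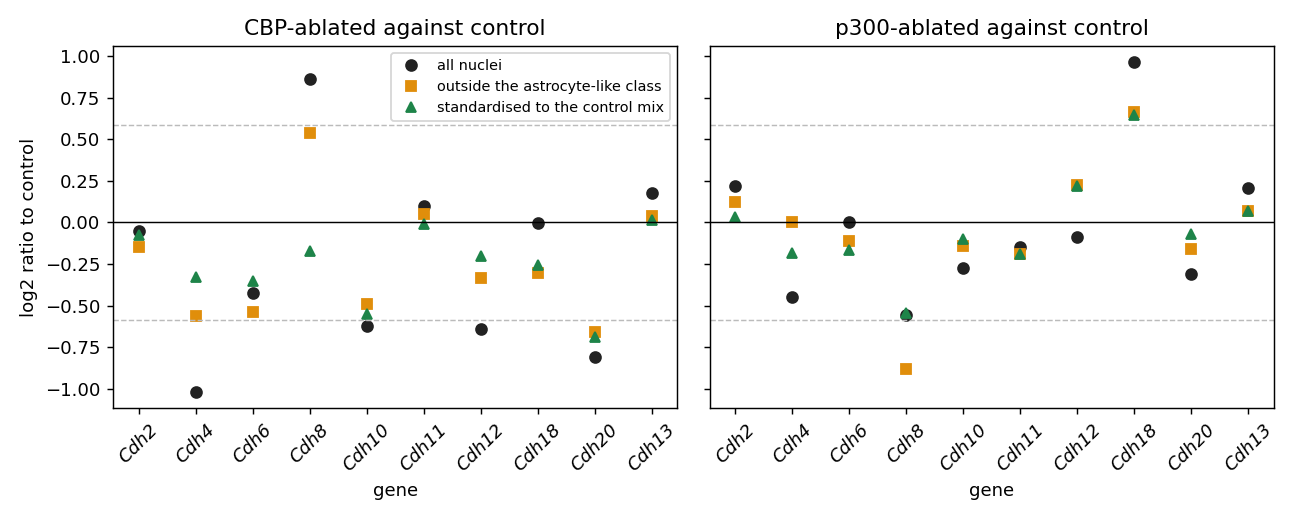
Log2 ratio of each cadherin to control in the CBP-ablated (left) and p300-ablated (right) library, over all nuclei (circles), outside the astrocyte-like class (squares) and at the control mix of classes (triangles), with dashed lines at 1.5-fold. Cdh20 on the left and Cdh18 on the right keep past 1.5-fold on all 3 scales, while Cdh8 on the left passes from 0.86 to −0.17.

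Within the classes, Cdh20, Cdh10 and Cdh6 were lower in the CBP-ablated than in the control library in each of 8 named classes. The 8 are those with at least 40 nuclei in each library, without the shallow microglia-like class, which was set aside after its values were seen. In that class Cdh10 was not lower but higher in the CBP-ablated library (log2 ratio 0.31, with an interval that held 0). Cdh6 had too few UMIs there for a ratio. Of 4791 genes with at least 20 UMIs in each of these classes, both libraries counted together, 2.55% were lower in all 8. Of the 77 ratios of members within these classes, 14 were lower past 1.5-fold, where 9.45% of such ratios over all genes were, and 4 were higher, where 13.5% were.

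For Cdh20 the log2 ratio ran from −0.33 in NPC/OPC-like nuclei, at 769 CPM against 968 CPM in control, to −1.54 in the Kcnj6-high class, at 634 CPM against 1846 CPM. In COP-like nuclei it was 1028 CPM against 1550 CPM (−0.59, −0.67 to −0.52). Neuron-like nuclei had 216 CPM against 428 CPM (−0.99, −1.35 to −0.63). All 8 intervals lay below 0. In microglia-like nuclei, where Cdh20 had 71 UMIs in all, the interval held 0 (−1.37 to 0.40).

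Cdh10 was 475 CPM against 712 CPM in NPC/OPC-like nuclei (log2 ratio −0.58), 503 against 734 CPM in COP-like nuclei (−0.54) and 494 against 705 CPM in oligodendrocyte-like nuclei (−0.51). Its interval lay below 0 in 7 of the 8 classes, and in glial progenitor-like nuclei it held 0 (−0.33 to 0.04). Cdh6 was 84.2 CPM against 153 CPM in COP-like nuclei (−0.86, −1.13 to −0.60), its lowest ratio. Its interval lay below 0 in 6 of the 8 classes. An unnamed cluster of 467 nuclei (227, 77 and 163 by library) had Cdkn1a, Btg2 and Mdm2 among its leading genes. There Cdh6 was higher in the CBP-ablated library, at 257 CPM against 163 CPM (0.65, 0.10 to 1.19). In the p300-ablated library the same members did not share 1 direction over the classes. Cdh20 was 943 CPM against 826 CPM in oligodendrocyte-like nuclei (0.19) and 317 against 431 CPM in RGC/PSC-like nuclei (−0.45). With microglia-like nuclei counted, Cdh20 and Cdh10 were each below 0 in 6 named classes and above 0 in 3. Cdh6 was below 0 in 5 named classes and above 0 in 3. Lower past 1.5-fold were Cdh20 in neuron-like nuclei (−0.64) and Cdh6 in RGC/PSC-like nuclei (−0.79).

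The Kcnj6-high class was not the same mixture in each library. A finer clustering was also made without cadherin genes and chosen after the data were seen. It split the class into a group with Gpr149 at 159 CPM and a group with Kcnj6 at 295 CPM. In the Gpr149 group Kcnj6 was only 38.5 CPM, beside 32.5 CPM in NPC/OPC-like nuclei. The Gpr149 group held 44.4% of the control nuclei of the class, 93.7% of the CBP-ablated and 10.3% of the p300-ablated ones. The class name therefore describes few of its CBP-ablated nuclei. In that group Cdh20 was 549 CPM in the CBP-ablated library against 1391 CPM in control (log2 ratio −1.34, −1.50 to −1.18). In the Kcnj6 group, with 20 CBP-ablated nuclei, it was 1734 CPM against 2152 CPM (−0.31, −0.57 to −0.06). Cdh10 was 391 CPM against 550 CPM in the Gpr149 group (−0.49) and 1015 CPM against 945 CPM in the Kcnj6 group (0.10, −0.25 to 0.44), so its whole-class ratio of −0.86 was larger in size than that of either group. Cdh6, at −0.44 over the whole class, was 138 CPM against 132 CPM in the Gpr149 group (0.06, −0.35 to 0.48) and 128 CPM with 10 UMIs against 221 CPM in the Kcnj6 group (−0.79, −1.87 to 0.12).

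Cdh18 was higher in the p300-ablated than in the control library in each of the same 8 classes, where 4.3% of 4066 genes were. In oligodendrocyte-like nuclei it was 96.1 CPM with 114 UMIs against 24.7 CPM with 21 UMIs (log2 ratio 1.96, 1.28 to 2.71). In COP-like nuclei it was 74.9 CPM against 28.4 CPM (1.40, 0.87 to 1.95). The neuron-like nuclei, where the gene is highest, had 293 CPM against 177 CPM (0.73, 0.23 to 1.23). In proliferating-like nuclei the ratio was 0.04 and in glial progenitor-like nuclei 0.10, both with intervals that held 0. In the Kcnj6-high class it was 0.74, and in the finer groups of that class 0.89 (−0.57 to 2.25) and 0.39 (−0.02 to 0.81). After thinning, 30 of 192 p300-ablated oligodendrocyte-like nuclei (15.6%) and 5 of 160 control ones had a Cdh18 UMI, beside 1.72% of microglia-like nuclei of the 3 libraries. Without thinning the shares were 29.5%, 11.2% and 3.54%.

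The p300-ablated library gave 76 ratios of members within these classes. Of them 7 were higher past 1.5-fold, where 8.98% of all such ratios were, and 9 were lower, where 8.89% were. The higher ones were 4 of Cdh18 and 3 of Cdh12. Those of Cdh12 were in COP-like, oligodendrocyte-like and proliferating-like nuclei, up to 1.34 in the last. Over the 7 named classes with a ratio, Cdh12 was above 0 in 5 and below 0 in 2, and 2 intervals lay above 0. Cdh4 was lower in the oligodendrocyte-like nuclei of both ablated libraries, at 48.2 CPM in control (41 UMIs), 18.3 CPM in the CBP-ablated (54 UMIs) and 15.2 CPM in the p300-ablated library (18 UMIs). The p300-ablated level lay below 10% of the 226 CPM of its whole library. With 10% free RNA subtracted, that ratio could therefore not be computed. Cdh13 in neuron-like nuclei was 312 CPM in control, 138 CPM in the CBP-ablated and 137 CPM in the p300-ablated library (log2 ratios −1.17 and −1.18), and these comparisons share the control nuclei. Cdh11 in COP-like nuclei was 311 CPM in the CBP-ablated library against 207 CPM (0.59, 0.41 to 0.78). Cdh2, the type I member of stem cell junctions, was 2185 CPM in the CBP-ablated, 2186 CPM in the p300-ablated and 2262 CPM in the control RGC/PSC-like nuclei, with both log2 ratios at −0.05 and intervals from −0.13 to 0.03 and from −0.12 to 0.02. Cdh2 was higher in COP-like nuclei of the p300-ablated library, at 718 CPM against 491 CPM (0.55, 0.41 to 0.69).

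**Figure D4:**
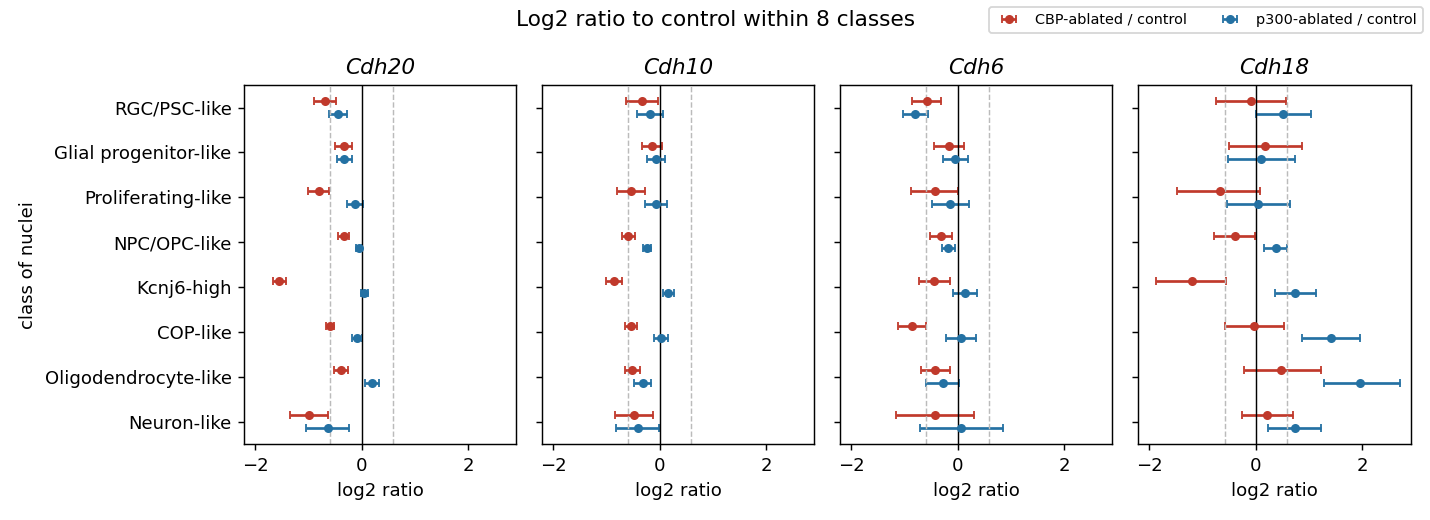
Log2 ratio to control of Cdh20, Cdh10, Cdh6 and Cdh18 (panels) within 8 classes (rows), for the CBP-ablated (red) and p300-ablated (blue) library, with 95% counting intervals and dashed lines at 1.5-fold. The red points of Cdh20, Cdh10 and Cdh6 all lie below 0, and the blue points of Cdh18 all lie above 0, up to 1.96 in oligodendrocyte-like nuclei.

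The sequences before the annotated start were read for the members that moved in 1 direction over the classes, and for Cdh8, as the gene held mostly by 1 class. CBP is named for binding CREB, a factor that binds the cAMP response element, so the element's core TGACG was searched on both strands. Starts from the RefSeq table (GRCm38.p6) were used for 6 of the 10 members, and the other members were not searched. Of 32851 windows of 250 bases before a start, 17.8% hold TGACG and 1.55% hold the full element TGACGTCA. The RefSeq starts of Cdh10, Cdh12 and Cdh18 lie inside the gene spans used for counting, so these genes have earlier annotated starts too. The windows lie at chr1:104768270-104768519 (plus strand) for Cdh20, chr15:18820079-18820328 (plus) for Cdh10, chr15:13173676-13173925 (minus) for Cdh6, chr15:23036213-23036462 (plus) for Cdh18 and chr8:99416472-99416721 (minus) for Cdh8. Each is given 5′ to 3′ on the gene's strand, and capitals mark TGACG or its reverse complement.
Cdh20: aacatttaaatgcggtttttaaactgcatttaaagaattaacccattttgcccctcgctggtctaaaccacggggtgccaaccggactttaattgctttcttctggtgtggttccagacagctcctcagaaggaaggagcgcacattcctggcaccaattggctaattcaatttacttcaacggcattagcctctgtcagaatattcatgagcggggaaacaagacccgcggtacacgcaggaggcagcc
Cdh10: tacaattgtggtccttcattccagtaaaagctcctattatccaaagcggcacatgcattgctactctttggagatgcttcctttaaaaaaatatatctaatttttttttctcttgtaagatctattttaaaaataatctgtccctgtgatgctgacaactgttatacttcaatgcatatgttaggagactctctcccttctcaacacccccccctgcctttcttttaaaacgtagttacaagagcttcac
Cdh6: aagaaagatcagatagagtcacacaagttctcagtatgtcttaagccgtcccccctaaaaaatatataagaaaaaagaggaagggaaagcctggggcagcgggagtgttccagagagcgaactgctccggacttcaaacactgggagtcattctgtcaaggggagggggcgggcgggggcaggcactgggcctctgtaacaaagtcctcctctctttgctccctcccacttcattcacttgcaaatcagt
Cdh18: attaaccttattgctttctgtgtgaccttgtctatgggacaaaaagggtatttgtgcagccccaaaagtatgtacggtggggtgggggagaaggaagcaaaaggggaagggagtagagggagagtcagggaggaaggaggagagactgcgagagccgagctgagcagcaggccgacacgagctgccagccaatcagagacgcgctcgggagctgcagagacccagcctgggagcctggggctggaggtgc
Cdh8: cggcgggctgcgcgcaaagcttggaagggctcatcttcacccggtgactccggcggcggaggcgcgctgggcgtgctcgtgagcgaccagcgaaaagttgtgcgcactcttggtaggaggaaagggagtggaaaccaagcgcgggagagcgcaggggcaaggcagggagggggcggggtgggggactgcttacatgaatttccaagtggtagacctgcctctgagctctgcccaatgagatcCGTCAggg
Cdh8 held 1 match, on the opposite strand, and the windows of Cdh20, Cdh10, Cdh6, Cdh18 and Cdh12 held none, which says only that these letters are not in this window. The share of G and C was 36.8% for Cdh10, 47.6% for Cdh20 and 64.4% for Cdh8, beside a median of 52.4% over all windows.

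The proteins that cadherins bind were read from lists of the family's partners. Of 14 catenins and cadherin-bound proteins, all with at least 100 UMIs, 1 was higher and 2 were lower past 1.5-fold in the CBP-ablated library, where 7.9% and 9.97% of all genes were. Their median log2 ratio was 0.15, beside 0.06 over all genes. Ctnnd2 (δ-catenin, a p120-type catenin of neural cells) was 3126 CPM in control, 1684 CPM in the CBP-ablated and 3034 CPM in the p300-ablated library. Kifc3, a motor protein of cell junctions, was 69.9, 39.8 and 77.7 CPM, so that it too was lowest in the CBP-ablated library. Pkp4, a p120-type protein, was 312, 601 and 375 CPM and was highest there. Outside the astrocyte-like class the CBP-ablated log2 ratios of Ctnnd2, Kifc3 and Pkp4 were −0.64, −0.82 and 0.73. Pkp4 was highest in oligodendrocyte-like nuclei at 1073 CPM, a class whose share was largest in the CBP-ablated library. Within classes the CBP-ablated ratio of Pkp4 was above 0 in 8 of 9. That of Ctnnd2 was below 0 in 8 of 9, and that of Kifc3 in 7 of 7.

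In the p300-ablated library Arvcf, another p120-type catenin, was the 1 listed partner past 1.5-fold, at 127 CPM against 71.4 CPM in control (log2 ratio 0.83). Of all genes, 4.37% were higher and 7.77% lower past 1.5-fold in that library. Outside the astrocyte-like class the Arvcf ratio was 0.48, short of 1.5-fold. It was above 0 in 5 and below 0 in 2 of the 7 classes compared. Ctnna2, the neural α-catenin, was at 2100.3 CPM in control, 2354 CPM in the CBP-ablated and 2752 CPM in the p300-ablated library. Its CBP-ablated log2 ratio was 0.16 over all nuclei but −0.18 outside the astrocyte-like class. Within 9 classes that ratio was below 0 in 7 and above 0 in 2. The p300-ablated ratio of Ctnna2 was 0.39 over all nuclei and 0.05 outside the astrocyte-like class, below 0 in 4 classes and above 0 in 5. Ctnnb1, the β-catenin gene, was at 33.3, 32.5 and 32.2 CPM, with both intervals holding 0 on the log2 scale. None of the 6 listed cadherin proteases, Adam10 and the γ-secretase genes among them, was past 1.5-fold in either ablated library, with median log2 ratios of 0.06 and −0.01. Adam10 was at 136, 130.1 and 119.7 CPM.

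Of 14 other cadherins, 4 had at least 100 UMIs. Cdh19, a type II member of Schwann and oligodendrocyte lineages, was 194 CPM in control, 199 CPM in the CBP-ablated and 205 CPM in the p300-ablated library. Its highest class was oligodendrocyte-like nuclei at 509 CPM, whose share was largest in the CBP-ablated library. Within 9 classes the Cdh19 ratio was below 0 in 7 and above 0 in 2 with CBP ablated. With p300 ablated it was below 0 in 3 and above 0 in 6. Cdh22 was 21.9, 11.5 and 33.1 CPM, past 1.5-fold lower in the CBP-ablated and higher in the p300-ablated library, where 9.97% and 4.37% of all genes were. Outside the astrocyte-like class its log2 ratios were −1.20 and 0.32, the second short of 1.5-fold. Cdh24 was 4.29, 7.14 and 5.62 CPM, higher past 1.5-fold in the CBP-ablated library, where 7.9% of all genes were. Its CBP-ablated log2 ratio was 0.56 outside the astrocyte-like class, short of 1.5-fold. Cdh23 was 5.21, 4.08 and 3.76 CPM. Cdh1 (E-cadherin) did not pass 0.858 CPM in any whole library, and its highest class was microglia-like nuclei at 28.3 CPM. Cdh5, the cadherin of blood vessels, had no UMI in control, where 3 UMIs would be 0.184 CPM.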

How the data were processed

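Nuclei were isolated, sorted and counted by the authors, whose 10x Genomics reads were aligned to GRCm38 with Cell Ranger 3.1 and counted in introns as well as exons. The submitters' notes also name FastQC 0.11.9 and Seurat 2.3.4. The authors deposited UMI counts per gene and nucleus without normalization, and groups follow the genotype labels. The members and lists were chosen with earlier results of these data known.

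The deposited counts were merged and clustered with Seurat 5.3.0 (union of 1000 variable genes per library, 1617 in all, without 16 cadherin superfamily genes of which 7 were members, 20 principal components, resolution 0.6, seed 1). A cluster was named when at least 60% of a marker list, and at least 3 markers, were detected in 10% of its nuclei at 2 times the level elsewhere. It also needed at least 40 nuclei, and no other list could have more markers among its 10 leading genes. Most markers were named by the study from these libraries. Called doublets (191, 73 and 173 nuclei) were kept, and left out as an alternative. They were the nuclei with the highest scores from Scrublet in scanpy 1.11.5. Their number was set by an assumed rate of 0.8% per 1000 nuclei and was not measured.

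CPM is counts per 1000000 UMIs of the summed nuclei, with exact 95% Poisson intervals, and ratios have conditional binomial intervals. UMIs of 3 were taken as what a count of 0 allows. A class ratio needed 20 UMIs in the 2 libraries together and 40 nuclei in each. The 10 members were always named, and of the other lists the genes past 1.5-fold with 100 UMIs in 2 libraries and some of the 3 most abundant. Ctnnb1, Cdh1, Cdh5 and the finer groups were chosen after values were seen. Intervals were tried on simulated Poisson counts, which hold counting error alone. That trial cannot show how the intervals fare with variation between nuclei or cultures. Alternatives were other mixes, depths, scalings, clusterings and 5% or 10% free RNA subtraction.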

Additional observations from a re-analysis of the deposited data

Results flagged for a closer look

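For 3 members the ratio to control lay past 1.5-fold in opposite directions in different named classes of 1 library, with each interval away from 0. The difference between classes was not tested in any of them. With the unnamed clusters counted, Cdh6 in the CBP-ablated library would be added, at −0.86 in COP-like nuclei and 0.65 in an unnamed cluster. Cdh11 in the CBP-ablated library had a log2 ratio of 0.59 in COP-like nuclei (875 against 342 UMIs) and −0.97 in neuron-like nuclei (49 against 49 UMIs). Cdh8 in the CBP-ablated library had a log2 ratio of 2.11 in oligodendrocyte-like nuclei (30 against 2 UMIs) and −1.15 in Kcnj6-high nuclei (9 against 26 UMIs), both at the low level the gene has outside neuron-like nuclei. Cdh13 in the p300-ablated library had a log2 ratio of −1.18 in neuron-like nuclei (45 against 97 UMIs) and 0.95 in microglia-like nuclei (21 against 22 UMIs), the shallow class that was set aside in the report.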

How the results depend on the processing

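In the CBP-ablated library 5 members lay past 1.5-fold in either direction, and 1 did, Cdh20, without the astrocyte-like class or at the control mix of classes, where the Cdh8 ratio turned to −0.17. In the p300-ablated library 1 member did, and 2 did without the astrocyte-like class, as a mean over nuclei, thinned to 1500 UMIs, or scaled without the 100 most abundant genes. The second member without the astrocyte-like class was Cdh8, which lay lower. The median log2 ratio of the members in the CBP-ablated library was −0.17 as a mean over nuclei, and it stayed below 0 in both comparisons under each of the 9 alternatives. The 34 class ratios past 1.5-fold gave 260 values under 8 alternatives, all of the same direction, but not all past 1.5-fold: 28 of 34 were without called doublets, 24 of 30 at resolution 1.2, 26 of 28 at resolution 0.3, 30 of 34 when clustered with cadherin genes, 32 of 34 with another seed and 31 of 32 with 10% free RNA subtracted. A further 12 values could not be had, among them every CBP-ablated ratio of the Kcnj6-high class at resolutions 0.3 and 1.2. With 10% free RNA subtracted, Cdh8 (CBP-ablated) and Cdh4 (p300-ablated) had no value in oligodendrocyte-like nuclei. Cdh18 in the p300-ablated library was not higher in every class under 5 of the 8 alternatives: 6 of 7 classes at resolution 0.3, 6 of 8 with 10% free RNA subtracted, and 7 of 8 at resolution 1.2, without called doublets and with 5% subtracted. Within the finer groups of the Kcnj6-high class, Cdh10 turned to 0.10 in the Kcnj6 group and Cdh6 to 0.06 in the Gpr149 group, which holds most CBP-ablated nuclei of the class. The class of highest level was the same for 7 of 10 members at resolutions 0.3 and 1.2. Over all nuclei, every member's share of nuclei with a UMI was higher without thinning. Thinning takes UMIs away from a nucleus, so this direction was largely fixed in advance. Leaving out the unnamed clusters, which like the finer groups was added after the data were seen, kept 5 members and 1 member past 1.5-fold. No paired analysis was possible because each group is 1 library. Intervals leave out the variation between cultures, which 1 library per condition does not show.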

Other observations

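Most nuclei held more than 1 of the cadherins at once. After thinning to 1500 UMIs, NPC/OPC-like nuclei held UMIs of a mean of 3.24 of the 10 members, Kcnj6-high nuclei 3.24, proliferating-like nuclei 3.47 and astrocyte-like nuclei 3.11. The mean was 2.22 in oligodendrocyte-like, 2.12 in glial progenitor-like and 0.802 in microglia-like nuclei. In the CBP-ablated library 45.2% of nuclei had UMIs of 3 or more members, beside 64.1% in control and 61.0% where p300 was ablated. These shares depend on the mix of classes. Astrocyte-like nuclei, in control alone, had 69.3%, and oligodendrocyte-like nuclei of the 3 libraries 39.7%. Within NPC/OPC-like nuclei the shares were 60.5% in the CBP-ablated, 73.5% in the control and 72.2% in the p300-ablated library. Within Kcnj6-high nuclei the shares were 48.5%, 75.1% and 82.3% for the CBP-ablated, control and p300-ablated libraries, and this class held different mixtures of its finer groups in each library.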
